A study of Mus musculus with 18 samples.

Results

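The 10 genes described here encode the core of the BCL2 family, and they were chosen by gene symbol from the deposited table of read counts, which lists 55536 genes. The 10 were the survival genes Bcl2, Bcl2l1 and Mcl1, the effector genes Bax and Bak1, and the BH3-only genes Bbc3, Bcl2l11, Bid, Bad and Pmaip1. All 10 passed the filter on low counts, as did 17590 genes of the table. The RNA came from pancreatic islets of male mice aged 17 weeks on the NOD.CB17-Prkdcscid/NCrCrl background, in every group. The Prkdc mutation that all groups carry leaves them without mature lymphocytes of the T and B lineages. Their genotypes were ZNT8 +/+ (WT), ZNT8 +/- (Het) or ZNT8 -/- (KO), where ZNT8 is zinc transporter 8, the product of Slc30a8, which loads insulin granules with zinc. After a night in culture the islets of each genotype were kept for 24 h either without cytokines (untreated) or with a mixture of TNF-α at 100 pg/ml, IL-1β at 150 pg/ml and IFN-γ at 10 pg/ml, called cytokines here. This gave 6 groups of 3 libraries, 18 in all. The labels do not say whether the untreated and the treated library of a number came from the same mouse, and p-values measure the spread between these libraries.

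Proteins of the BCL2 family decide whether the outer mitochondrial membrane is opened during apoptosis. BAX and BAK, the effectors, form the pores through which cytochrome c leaves the mitochondria. BCL2, BCL-XL (the product of Bcl2l1) and MCL1 hold them in check. BH3-only proteins sense stress and either block the survival proteins or activate the effectors directly. In beta cells the family is studied because inflammatory cytokines released in the inflamed islet of autoimmune diabetes can kill these cells. Much of the control acts on the proteins, by phosphorylation, cleavage and degradation, which RNA counts do not measure.

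The libraries held 22990164 to 29946680 reads assigned to genes. Levels are given as CPM, counts scaled to the library size with TMM factors. Changes are on the log2 scale with their SE and come from the quasi-likelihood test of edgeR, with p-values adjusted by the Benjamini-Hochberg method over the 17590 genes tested. "Rose", "fell" and "called" mean an adjusted p below 0.05. Slc30a8, read as a check of the labels, stood at 98.8, 123 and 125 CPM in the untreated WT libraries, 126, 95.7 and 111 CPM in those of Het and 47.9, 55.9 and 44.0 CPM in those of KO. With cytokines its range was 34.5 to 46.4 CPM for WT, 32.1 to 56.6 CPM for Het and 20.0 to 23.2 CPM for KO. The KO libraries lay below the others in each treatment, and Het and WT libraries overlapped, so the check does not separate Het from WT. The labels do not give the deleted part of the gene, so the reads left in KO cannot be placed inside or outside it. The markers of beta cells were all detected, and their summed level was 143789 to 232960 CPM per library. The 5 markers of T and B cells summed to at most 3.18 CPM, with 1 to 3 of them at 0 in every library of a group.

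Libraries stood apart in ways that the groups do not give. Untreated Het replicate 1 had the lowest sample quality weight of limma, 0.231, with 825 CPM of summed mesenchymal markers against up to 2541 CPM in its group. Untreated KO replicate 3 had the next lowest weight, 0.479, with 3242 CPM of mesenchymal and 218 CPM of macrophage markers against at least 1252 and 97.1 CPM in its group. The summed acinar markers, digestive enzyme genes of exocrine tissue, ranged from 5142 to 9779 CPM in WT, from 2572 to 4015 CPM in Het and from 679 to 2199 CPM in KO libraries. In bulk islets fewer cells of a type and less RNA per cell cannot be told apart.

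The order of the members' levels was compared per length, as CPM per kb of exon. In untreated WT islets Mcl1 had the highest level, at 36.8 ± 0.36 CPM per kb (SD, n = 3), followed by Bax at 21.4 and Bcl2l1 at 17.3 CPM per kb. The other effector, Bak1, stood at 10.8 CPM per kb. Of the BH3-only genes, Bbc3 and Bad stood at 8.18 and 7.93 CPM per kb and Bcl2l11, Pmaip1 and Bid at 2.85, 2.08 and 1.38 CPM per kb. Bcl2, the founder of the family, had the lowest level of the 10, at 0.687 CPM per kb. Of the 9 pairs of neighbours in this order, only Bbc3 and Bad overlapped over the 3 libraries. Neighbours overlapped in 5 of 9 pairs in untreated Het and in 5 of 9 in untreated KO islets. Mcl1 was first and Bcl2 last in all 6 groups. With the length of the longest transcript in place of all exons, 2 places changed in the means of untreated WT islets. Bcl2l1 stood at 30.9 and Bax at 30.7 CPM per kb, nearly the same, and Bad at 13.2 and Bak1 at 10.9 CPM per kb. Overlap of libraries was not compared for this length. By that length the mean of Bcl2l1 also stood ahead of that of Mcl1 in treated Het islets, at 43.8 against 42.6 CPM per kb. It lay within the Mcl1 libraries, at 40.1 to 46.6 CPM per kb. Bcl2 stayed last in every group.

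**Figure D1:**
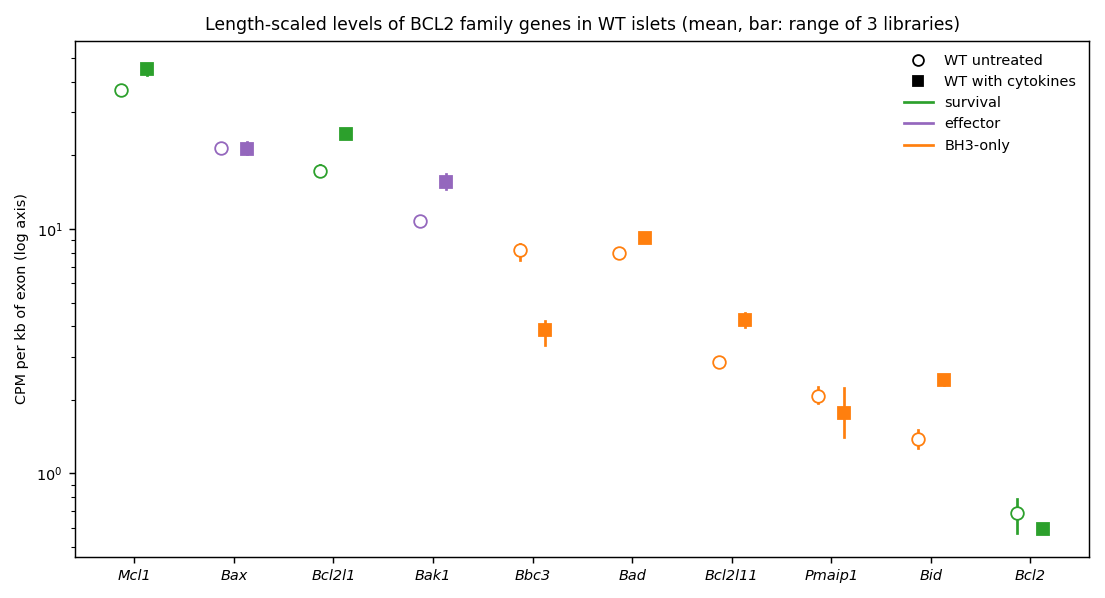
Levels of the 10 genes in WT islets as CPM per kb of exon (log axis), untreated and with cytokines, coloured by role. Symbols are means, and lines run from the lowest to the highest of 3 libraries. With cytokines Bcl2l1 moved from the third to the second place and Bbc3 from the fifth to the seventh. With the length of the longest transcript, Bcl2l1 held rank 2 in both, untreated at 30.9 against 30.7 CPM per kb of Bax. Bbc3 went from rank 6 to rank 7. The libraries of Bbc3 overlapped with those of Bad untreated and with those of Bcl2l11 with cytokines.

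After cytokines in WT islets the order was Mcl1 at 45.0, Bcl2l1 at 24.5, Bax at 21.1, Bak1 at 15.6, Bad at 9.14, Bcl2l11 at 4.25, Bbc3 at 3.85, Bid at 2.41, Pmaip1 at 1.76 and Bcl2 at 0.592 CPM per kb. The survival genes then made up 54.7% ± 0.46 of the summed level per kb of the 10 genes, against 50.1% ± 0.81 without cytokines (SD, n = 3). Their share went from 49.8% ± 2.57 to 54.3% ± 1.21 in Het and from 47.2% ± 1.35 to 54.5% ± 0.68 in KO islets. The BH3-only share went from 20.5% to 16.7% in WT, from 20.5% to 16.1% in Het and from 21.9% to 16.1% in KO islets. In each genotype the treated libraries lay above the untreated ones for the survival share and below them for the BH3-only share, with no overlap. Among the BH3-only genes of WT islets, Bbc3 went from 8.18 to 3.85 and Pmaip1 from 2.08 to 1.76 CPM per kb. Bad went from 7.93 to 9.14, Bcl2l11 from 2.85 to 4.25 and Bid from 1.38 to 2.41 CPM per kb. The BH3-only share thus does not stand for these genes as a class, and it leaves out Bmf, a BH3-only gene outside the 10. These shares are sums of RNA levels and were not tested.

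The comparison of treated with untreated islets asks what 24 h of cytokines did to the family in each genotype. In WT islets 7 of the 10 genes changed, 6 higher and 1 lower, and in KO islets also 7, with 5 higher and 2 lower. In Het islets 4 changed, 3 higher and 1 lower. Cytokines changed 25.8% of all genes tested in WT islets, 24.6% in Het islets and 31.5% in KO islets. The genes that rose made up 12.6%, 12.8% and 15.4% of those tested, and the genes that fell 13.1%, 11.8% and 16.1%. Bcl2l1, Bcl2l11 and Bid rose and Bbc3 fell in all 3 genotypes. The median log2 change of the 10 genes was 0.25 in WT, 0.16 in Het and 0.29 in KO islets, against -0.01, -0.03 and -0.03 for all genes. Treated and untreated libraries did not overlap for 7 members in WT, 6 in Het and 7 in KO islets, where 46.5%, 35.1% and 42.6% of all genes did not overlap.

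**Figure D2:**
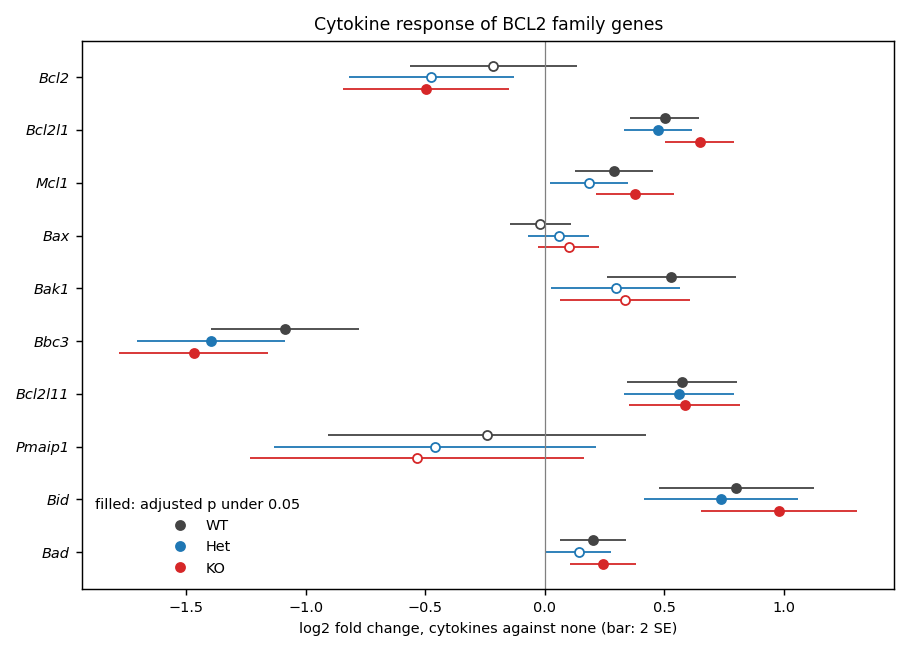
Log2 fold change with cytokines against none for each gene in WT, Het and KO islets, with bars of 2 SE. Filled points have an adjusted p under 0.05. Bbc3 lies at -1.09 to -1.47 and Bid at 0.74 to 0.98, on opposite sides of 0 within the BH3-only genes.

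Bbc3 encodes PUMA, a BH3-only protein that binds all survival proteins of the family and is a known target of p53 and of endoplasmic reticulum stress signals (ENSMUSG00000002083; GRCm38 chromosome 7, 16308393 to 16318205, plus strand). Without cytokines the WT libraries held 15.8, 18.4 and 18 CPM, the Het libraries 21.0, 18.9 and 14.8 CPM and the KO libraries 18.4, 24.9 and 16.7 CPM. After 24 h of cytokines these were 7.15, 8.43 and 8.93 CPM (WT), 6.23, 7.51 and 7.04 CPM (Het) and 7.34, 7.85 and 6.49 CPM (KO). All 9 treated libraries thus lay below all 9 untreated ones, whatever the genotype. Bbc3 fell by 1.09 ± 0.15 in WT (edgeR adjusted p = 9.20e-05), by 1.40 ± 0.16 in Het (adjusted p = 7.27e-06) and by 1.47 ± 0.16 in KO islets (adjusted p = 3.26e-06) on the log2 scale. Cytokine-treated islets kept 47.0%, 38.0% and 36.1% of the untreated level in WT, Het and KO. Its log2 change lay at the 3.32 percentile of all genes tested in WT, 2.59 in Het and 2.39 in KO islets. Bbc3 made up 36.5% ± 1.93 of the summed BH3-only level per kb in untreated WT islets and 18% ± 1.98 with cytokines (SD, n = 3). In KO islets this share went from 42.2% ± 5.84 to 17.5% ± 1.89.

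RefSeq gives 3 start sites of Bbc3, and the windows of 250 bases before to 50 after a start were searched for motifs. A kappa B motif, the site of NF-kB (GGG, any 2 bases, then TTTCC, on either strand), lay in 1 window and an E-box (CACGTG, which reads the same on both strands) in another. The stretches around them are shown because Bbc3 had the largest change of the 10 genes. Capitals mark the match, both stretches lie on the plus strand of GRCm38.p6, at chr7:16309407-16309496 and chr7:16310327-16310412, and the kappa B match is on the reverse strand, 136 to 127 bases before its start site. The E-box lies 64 to 59 bases before the other start site.
Bbc3 kappa B: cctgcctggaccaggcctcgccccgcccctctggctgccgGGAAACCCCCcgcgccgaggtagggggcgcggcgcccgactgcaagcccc
Bbc3 E-box: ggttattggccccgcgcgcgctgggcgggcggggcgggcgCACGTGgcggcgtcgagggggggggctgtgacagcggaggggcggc
The kappa B motif is in 1.63% and the E-box in 7.15% of the 32851 windows of the RefSeq table. A match is a description of the letters and was not tested for binding.

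Bcl2l11 encodes BIM, a BH3-only protein that binds every survival protein and can activate BAX and BAK directly (ENSMUSG00000027381; chromosome 2, 128126038 to 128162547, plus strand). The untreated levels were 23.2, 22.8 and 22.7 CPM for WT replicates 1 to 3, 17.2, 24.9 and 20.3 CPM for Het and 15.3, 18.5 and 19.3 CPM for KO. The treated libraries gave 36.4, 34.2 and 31.8 CPM for WT, 30.6, 30.4 and 31.1 CPM for Het and 25.6, 24.3 and 29.8 CPM for KO. The treated libraries lay above the untreated ones in each genotype. The rise was 0.58 ± 0.11, 0.56 ± 0.11 and 0.59 ± 0.12 in WT, Het and KO islets (edgeR adjusted p = 0.00158, 0.00192 and 0.00113), or 1.48- to 1.5-fold.

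Bid is cut by caspase-8 after signals from death receptors such as the TNF receptor, and the cut protein carries the signal to the mitochondria (ENSMUSG00000004446; chromosome 6, 120891930 to 120916853, minus strand). In untreated islets the 3 WT libraries gave 5.37, 4.85 and 4.51 CPM, the Het libraries 3.82, 5 and 5.61 CPM and those of KO 4.36, 3.08 and 4.69 CPM. Cytokine-treated libraries reached 8.76, 8.76 and 8.19 CPM, 8.79, 7.95 and 7.36 CPM and 9.10, 7.98 and 6.95 CPM in the same order of genotypes. Every treated library lay above every untreated one. Bid rose by 0.80 ± 0.16, 0.74 ± 0.16 and 0.98 ± 0.16 (edgeR adjusted p = 0.00175, 0.00326 and 2.65e-04), at the 93.3, 94.3 and 94.9 percentile of all genes tested. Its exons overlap those of Bcl2l13 on the opposite strand, which had a mean of 61.8 CPM and log2 changes of -0.15, -0.07 and -0.04 that did not pass the test. The labels do not say whether counting used strand, or how reads of the shared stretch were assigned.

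Bad, whose protein is kept in the cytosol by 14-3-3 proteins when survival kinases phosphorylate it, moved little (ENSMUSG00000024959; chromosome 19, 6941861 to 6951899, plus strand). Without cytokines the WT libraries held 19.4, 20.0 and 21.5 CPM, the Het libraries 22.5, 19.4 and 23.5 CPM and the KO libraries 21.0, 21.1 and 20.0 CPM. After 24 h of cytokines these were 23.7, 23.4 and 23 CPM (WT), 22.3, 24.9 and 24.9 CPM (Het) and 25.0, 24.5 and 24.0 CPM (KO). The groups overlapped in Het islets only. Bad rose by 0.20 ± 0.07 in WT (edgeR adjusted p = 0.0407) and 0.24 ± 0.07 in KO islets (adjusted p = 0.0134), with 0.14 ± 0.07 in Het islets (adjusted p = 0.153). The WT call was lost when any 1 of the 3 treated WT libraries, or untreated replicate 1 or 2, was left out, with an adjusted p of up to 0.129, and with no low-count filter (0.0992). The exons of Bad overlap those of Gpr137 on the opposite strand, which had a mean of 26.5 CPM and did not pass the test in any genotype.

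Pmaip1 encodes NOXA, a BH3-only protein that targets MCL1 (ENSMUSG00000024521; chromosome 18, 66458533 to 66465565, plus strand). The untreated levels were 6.16, 5.60 and 5.28 CPM for WT replicates 1 to 3, 3.65, 6.01 and 5.02 CPM for Het and 2.54, 2.92 and 5.31 CPM for KO. The treated libraries gave 3.84, 6.13 and 4.47 CPM for WT, 3.95, 3.94 and 2.79 CPM for Het and 2.26, 1.26 and 3.92 CPM for KO. The groups overlapped in every genotype, and the lowest value rests on 28 reads. The log2 changes of -0.24 ± 0.33, -0.46 ± 0.34 and -0.53 ± 0.35 did not pass the test (edgeR adjusted p = 0.644, 0.361 and 0.270). Intervals of 2 SE reached from -0.90 to 0.43 in WT and from -1.23 to 0.17 in KO islets. Without treated KO replicate 3 the KO value was -1.0 (adjusted p = 0.0475).

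**Figure D3:**
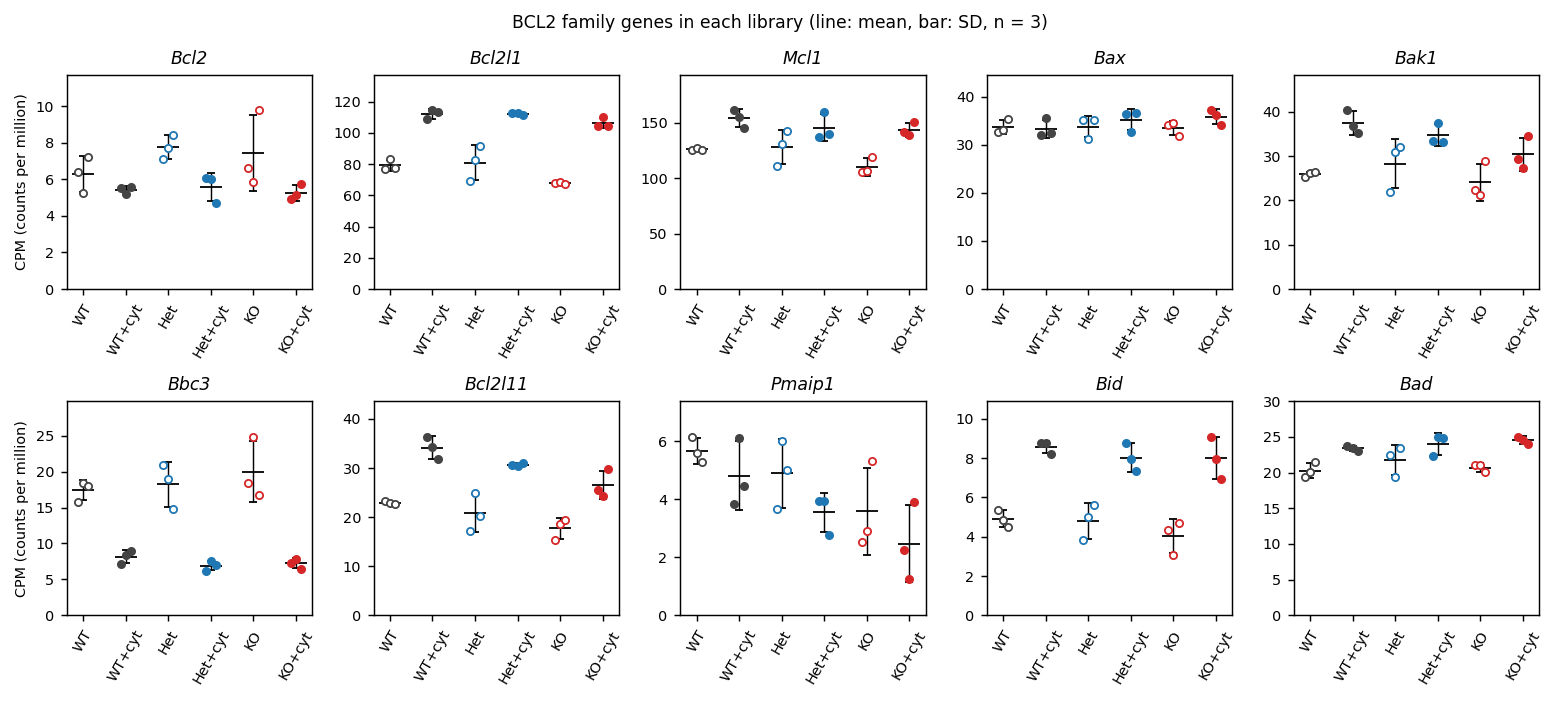
CPM of the 10 genes in each library by group, with the mean and SD of 3 libraries, each panel on its own axis from 0. The 9 treated Bbc3 libraries lie between 6.23 and 8.93 CPM, below all untreated libraries at 14.8 to 24.9 CPM.

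Among the survival genes, Bcl2l1 encodes BCL-XL, which binds BAX, BAK and several BH3-only proteins (ENSMUSG00000007659; chromosome 2, 152780668 to 152831728, minus strand). In untreated islets the 3 WT libraries gave 76.7, 83.5 and 77.5 CPM, the Het libraries 69.0, 82.5 and 91.4 CPM and those of KO 68.1, 68.5 and 67.2 CPM. Cytokine-treated libraries reached 109, 115 and 114 CPM, 113, 113 and 112 CPM and 105, 110.2 and 105 CPM in the same order of genotypes. All treated libraries lay above all untreated ones. Bcl2l1 rose by 0.50 ± 0.07, 0.47 ± 0.07 and 0.65 ± 0.07 (edgeR adjusted p = 9.33e-05, 1.47e-04 and 5.16e-06), or 1.42-, 1.39- and 1.57-fold. One of its RefSeq promoter windows also holds a kappa B match, in a stretch that overlaps an annotated exon of Bcl2l1 itself.

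The ratio of Bcl2l1 to Bbc3, both per kb, was 2.12 ± 0.13 in untreated WT islets and 6.41 ± 0.58 with cytokines (SD, n = 3). It went from 2.13 ± 0.67 to 7.56 ± 0.72 in Het and from 1.62 ± 0.30 to 6.86 ± 0.54 in KO islets. In each genotype every treated library had a higher ratio than every untreated one. This follows from the values of the 2 genes given above, which moved in opposite directions, and is no separate result. The ratios to Bbc3 of the BH3-only genes Bcl2l11 and Bid also went up in WT islets, from 0.350 to 1.12 and from 0.170 to 0.635. The ratio is of RNA levels, and no protein was measured.

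MCL1 is a short-lived survival protein whose level follows its synthesis closely (Mcl1, ENSMUSG00000038612; chromosome 3, 95658788 to 95663176, plus strand). Without cytokines the WT libraries held 125, 127 and 125 CPM, the Het libraries 111, 130.3 and 142 CPM and the KO libraries 105, 106 and 119 CPM. After 24 h of cytokines these were 161, 155 and 145 CPM (WT), 137, 159 and 139.8 CPM (Het) and 141, 139 and 150.4 CPM (KO). The groups overlapped in Het islets, where untreated replicate 1 was the lowest. Mcl1 rose by 0.29 ± 0.08 in WT (edgeR adjusted p = 0.0153) and 0.38 ± 0.08 in KO islets (adjusted p = 0.00210), with 0.19 ± 0.08 in Het islets (adjusted p = 0.111). The WT call was lost without treated WT replicate 1 (adjusted p = 0.0668), and Het islets gave 0.27 (adjusted p = 0.0272) without untreated replicate 3.

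The promoter window of Mcl1 holds a kappa B match on the reverse strand, 28 to 19 bases before the start site. The stretch is shown to set it beside that of Bbc3, which fell where Mcl1 rose, and lies on the plus strand of GRCm38.p6 at chr3:95658653-95658720, with the match in capitals.
Mcl1 kappa B: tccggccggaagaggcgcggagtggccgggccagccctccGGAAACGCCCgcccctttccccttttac
Kappa B motifs were found in 3 of the 15 windows of the 9 members searched, those of Bcl2l1, Mcl1 and Bbc3. The gamma-activated site TTCNNNGAA of STAT factors, in 8.30% of all windows, the C/EBP-ATF site TGATGCAA, in 0.895%, and the p53 response element, in 0.0731%, were in none of the 15. No match says only that these letters are not in the window.

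Bcl2, which blocks BAX and BAK at the mitochondria and the endoplasmic reticulum, went the other way (ENSMUSG00000057329; chromosome 1, 106538178 to 106714274, minus strand). The untreated levels were 6.41, 5.24 and 7.22 CPM for WT replicates 1 to 3, 7.10, 7.73 and 8.42 CPM for Het and 6.64, 5.84 and 9.77 CPM for KO. The treated libraries gave 5.50, 5.21 and 5.56 CPM for WT, 6.04, 6.02 and 4.68 CPM for Het and 4.94, 5.11 and 5.76 CPM for KO. The groups overlapped in WT only. Bcl2 fell by 0.50 ± 0.17 in KO islets (edgeR adjusted p = 0.0401), with -0.21 ± 0.17 in WT (adjusted p = 0.403) and -0.47 ± 0.17 in Het islets (adjusted p = 0.0568). The KO value was -0.22 (adjusted p = 0.302) without untreated KO replicate 3, the library with 9.77 CPM of Bcl2 and the highest mesenchymal and macrophage marker sums, whose part in the result was not tested. The KO call was also lost when any 1 of the 3 treated KO libraries was left out, with an adjusted p of 0.0591 to 0.121, with no low-count filter (0.0660) and in a fit of the KO libraries alone (0.151). The ratio of Bax to Bcl2 per kb was 31.6 ± 4.44 and 35.8 ± 3.32 in untreated and treated WT islets, 25.5 ± 2.88 and 37.3 ± 7.18 in Het and 27.7 ± 7.94 and 39.8 ± 4.75 in KO islets.

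The effectors differed from each other. Bax did not pass the test in any genotype, with log2 changes of -0.02 ± 0.06, 0.06 ± 0.06 and 0.10 ± 0.06 (edgeR adjusted p = 0.878, 0.565 and 0.262; ENSMUSG00000003873; chromosome 7, 45461697 to 45466898, minus strand). Intervals of 2 SE ran from -0.15 to 0.11 in WT, from -0.07 to 0.19 in Het and from -0.03 to 0.23 in KO islets. Its 18 libraries lay between 31.2 and 37.2 CPM. The WT value turned positive, at 0.0026 to 0.017, when treated replicate 1 or 3 or untreated replicate 3 was left out. Its window holds an E-box 9 to 4 bases before the start site, shown beside that of Bbc3 because both genes carry the motif and Bbc3 alone of them passed the test. It lies on the minus strand of GRCm38.p6, chr7:45466899-45466947.
Bax E-box: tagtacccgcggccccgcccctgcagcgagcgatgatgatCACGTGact
A second E-box lies 36 to 41 bases after the same start site. The exons of Bax overlap those of Gm45808 on the same strand, a gene that was not among those tested. On the opposite strand, exons of Bak1 overlap those of Ggnbp1, which had a mean of 0.937 CPM. Those of Bcl2 overlap D630008O14Rik on the opposite strand, which was not among the genes tested. How the shared reads were counted is not known.

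Bak1 encodes BAK, the effector that sits on the mitochondria in healthy cells (ENSMUSG00000057789; chromosome 17, 27019810 to 27029009, minus strand). In untreated islets the 3 WT libraries gave 25.4, 26.2 and 26.3 CPM, the Het libraries 21.9, 30.9 and 32.1 CPM and those of KO 22.3, 21.2 and 28.8 CPM. Cytokine-treated libraries reached 40.4, 36.9 and 35.2 CPM, 33.5, 37.6 and 33.2 CPM and 29.5, 27.4 and 34.5 CPM in the same order of genotypes. The groups did not overlap in WT and Het and overlapped in KO islets, where untreated replicate 3 was above treated replicate 2. Bak1 rose by 0.53 ± 0.14 in WT islets (edgeR adjusted p = 0.00887). Its values were 0.30 ± 0.13 in Het (adjusted p = 0.126) and 0.34 ± 0.14 in KO islets (adjusted p = 0.0725). Without untreated KO replicate 3 the KO value was 0.51 (adjusted p = 0.0109), and without untreated Het replicate 1 the Het value was 0.14 (adjusted p = 0.425). Bak1 made up 33.5% ± 0.67 of the summed effector level per kb in untreated WT islets and 42.4% ± 2.48 with cytokines.

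Cell type markers moved with the treatment as well. Of 9 beta cell markers 5 fell with cytokines in each genotype, and of 6 alpha cell markers 2 fell in each, while 1 beta cell marker rose in KO islets. Delta cell markers fell for 3 of 4 in WT and 2 of 4 in Het and in KO islets. The summed duct markers were higher with cytokines in WT, at 3487 to 6550 against 1703 to 2723 CPM, and in KO libraries, at 2939 to 3837 against 1286 to 1848 CPM. They overlapped in Het libraries, and 1 of 6 duct markers rose in WT and in KO islets. The summed beta cell markers were 166458 to 192133 CPM in untreated WT and 143789 to 162762 CPM in treated WT libraries. They overlapped in Het, at 163376 to 200782 CPM untreated and 153850 to 182443 CPM treated. In KO they also overlapped, at 187327 to 232960 CPM untreated and 161383 to 204060 CPM treated. Mesenchymal markers fell for 1 of 7 in WT, 5 of 7 in Het and 1 of 7 in KO islets, and no acinar or macrophage marker was called by cytokines in any genotype. The part of these shifts in the members' changes was not tested.

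The other genes of the pathway were read from lists, described by their counts. Of 17 other BCL2 family genes 13 were tested, and 2 rose in WT, 1 in Het and 2 in KO islets, with none lower and medians of 0.41, 0.05 and -0.04. The gene that rose in all 3 genotypes was Bmf, a BH3-only protein bound to the cytoskeleton, at 1.00 ± 0.17, 1.18 ± 0.17 and 1.37 ± 0.18 (edgeR adjusted p = 4.89e-04, 1.18e-04 and 2.29e-05). Bmf went from 28.9 ± 2.37 to 58.0 ± 3.13 CPM in WT, from 24.4 ± 8.56 to 55.2 ± 4.78 CPM in Het and from 19.2 ± 2.39 to 49.6 ± 1.13 CPM in KO islets (SD, n = 3). Bnip3l, a mitophagy receptor with a BH3-like stretch, rose in WT (0.32 ± 0.10) and KO (0.53 ± 0.10) and had 0.17 ± 0.10 in Het islets. Bcl2l2, the survival gene for BCL-W, named here after its values were seen, had -0.04 ± 0.05, 0.02 ± 0.05 and 0.01 ± 0.05. The Bcl2a1 copies, near-identical genes whose reads may be split between them, had group means of 0.342 to 1.15 CPM and were not called.

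Of 17 genes of the mitochondrial steps of apoptosis, 6 rose and 2 fell in WT, 3 rose and 4 fell in Het and 7 rose and 3 fell in KO islets, with medians of 0.13, 0.08 and 0.11. Vdac1 and Vdac3, channels of the outer mitochondrial membrane, fell in all 3 genotypes, Vdac1 by 0.32 ± 0.06, 0.33 ± 0.06 and 0.32 ± 0.06 and Vdac3 by 0.30 ± 0.04, 0.43 ± 0.04 and 0.40 ± 0.04.

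Of 23 regulators of BCL2 family transcription, 5 rose and 9 fell in WT, 8 rose and 9 fell in Het and 8 rose and 9 fell in KO islets, and 14 were called in all 3 genotypes. The medians were -0.16, -0.07 and -0.07. Cebpb, a factor of acute inflammation, rose by 1.09 ± 0.08, 1.08 ± 0.08 and 1.23 ± 0.08, and Nfkb1, a subunit of NF-kB, by 1.02 ± 0.11, 0.99 ± 0.11 and 1.12 ± 0.11. Atf4, the factor of the integrated stress response, fell by 0.60 ± 0.06, 0.70 ± 0.06 and 0.83 ± 0.06, and its WT level went from 437 ± 21.6 to 288 ± 22.2 CPM. Sesn2, induced by p53 and ATF4 under stress, fell by 1.13 ± 0.11, 1.15 ± 0.11 and 1.34 ± 0.11.

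Further regulators were singled out after their values were seen. Ddit3, the stress factor CHOP that is known to induce Bbc3 and Bcl2l11, fell by 1.00 ± 0.15, 0.95 ± 0.15 and 0.96 ± 0.15, and Trib3, which is induced by CHOP and ATF4, by 0.72 ± 0.10, 0.90 ± 0.10 and 1.03 ± 0.10. Cdkn1a, a p53 target, fell by 0.31 ± 0.07, 0.44 ± 0.07 and 0.45 ± 0.07, and Foxo1 by 0.60 ± 0.08, 0.57 ± 0.08 and 0.67 ± 0.08. On the same list Jun went the other way, from a mean of 102 to 143 CPM in WT islets. Its means went from 91.9 to 132 CPM in Het and from 65.5 to 110 CPM in KO islets. Those of Foxo3 went from 71.7 to 75.4, from 62.6 to 74.7 and from 67.1 to 75.2 CPM in WT, Het and KO. Trp53 itself, at 0.21 ± 0.10, 0.09 ± 0.10 and -0.04 ± 0.10, and Mdm2, at 0.01 ± 0.04, 0.08 ± 0.04 and 0.04 ± 0.04, did not pass the test. Bbc3 and these stress genes were read from the same libraries, and whether the one follows the other was not tested.

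**Figure D4:**
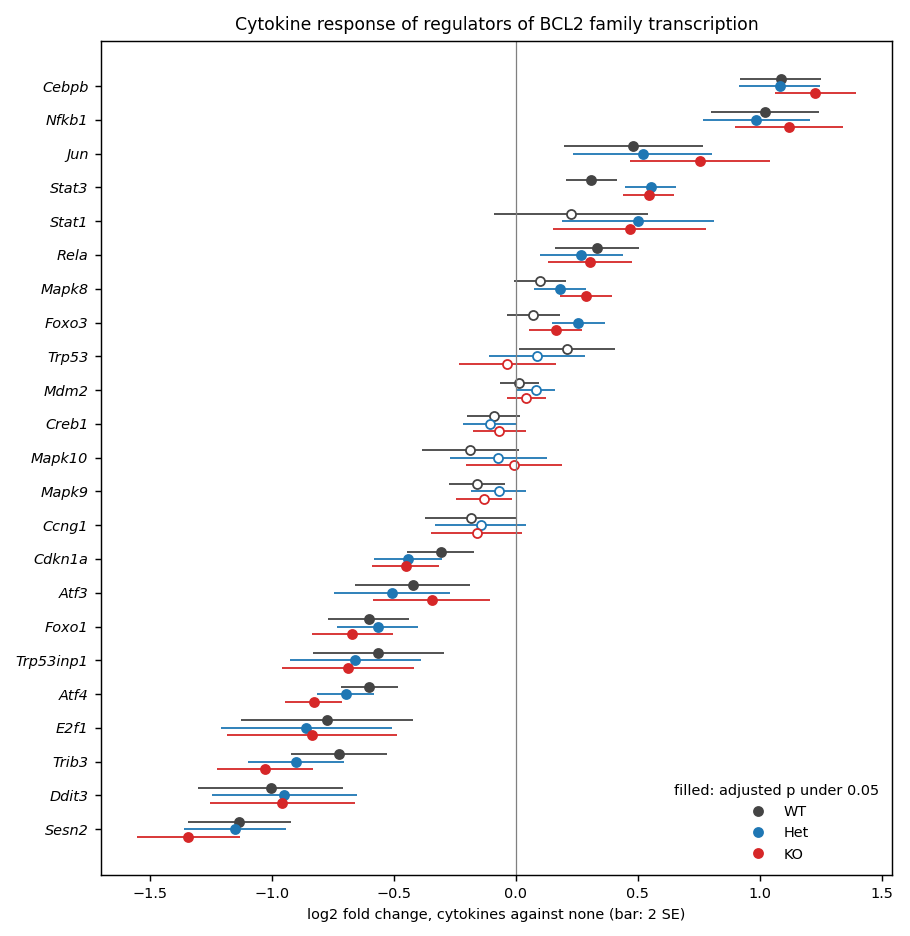
Log2 fold change with cytokines of the 23 regulators of BCL2 family transcription in WT, Het and KO islets, with bars of 2 SE and filled points for an adjusted p under 0.05. Cebpb and Nfkb1 lie near 1 and Sesn2 and Ddit3 near -1 in all 3 genotypes.

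Of 22 genes for turnover and anchoring of the family's proteins, 9 rose and 2 fell in WT, 6 rose in Het and 8 rose in KO islets, with medians of 0.14, 0.12 and 0.12. Pim2, a kinase that can phosphorylate BAD, rose by 0.75 ± 0.12, 0.89 ± 0.12 and 0.91 ± 0.12. Ppp3ca, the catalytic subunit of calcineurin, which dephosphorylates BAD, rose by 0.28 ± 0.05, 0.37 ± 0.05 and 0.43 ± 0.05. Akt2, a kinase upstream of BAD and FOXO1, rose by 0.27 ± 0.06, 0.37 ± 0.06 and 0.30 ± 0.06, and the 14-3-3 gene Ywhae by 0.15 ± 0.04, 0.17 ± 0.04 and 0.24 ± 0.04. A kinase and a phosphatase of BAD thus rose together at the RNA level.

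Genes with the most similar profile were sought for Bbc3, Bid and Bcl2l11, the 3 members with the largest mean cytokine change, as the smallest root mean square distance over the 6 group means of log2 CPM. The nearest to Bbc3 were Mthfd2, at a distance of 0.0568, Anln at 0.0598 and Cbs at 0.0632 on the log2 scale. Mthfd2, an enzyme of mitochondrial folate metabolism, had log2 changes of -1.16, -1.28 and -1.48, and Cbs, an enzyme of transsulfuration, -1.16, -1.41 and -1.50, beside -1.09, -1.40 and -1.47 of Bbc3. Anln, which encodes the cytokinesis protein anillin, had -1.06, -1.81 and -1.48, farther from Bbc3 in Het islets. The nearest to Bid were Fam241a (0.0303), Slc39a1 (0.0318) and Skil (0.0330), and to Bcl2l11 Cemip2 (0.0486), Zswim4 (0.0501) and Acot7 (0.0508). The 6 points are group means of the same 18 libraries.

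The comparisons of genotypes ask what the loss of 1 or both copies of Slc30a8 did to the family. By edgeR none of the 10 genes was called between any pair of genotypes, with or without cytokines, where 3.04% of all genes were called between untreated KO and WT islets and 5.34% with cytokines. The share was 0.00569% for untreated Het against WT, 0.00569% for untreated KO against Het and 0% for both pairs with cytokines. At an unadjusted p under 0.05 there were 3 members between untreated KO and WT, 3 between KO and WT with cytokines, 2 between untreated KO and Het, and 0 in the other 3 comparisons. Of all genes tested, 18.5%, 24.3% and 14.9% had such a p in the first 3 of these comparisons, so the members' counts are near the background. DESeq2 called 1 member, Bcl2l11, between KO and WT with cytokines and 0 in the other 5. There it called 10.5% of the 14845 genes to which it gave an adjusted p. Limma called 0 members between Het and WT islets in either treatment and between KO and Het islets with cytokines. The comparisons share the WT, Het or KO libraries, so their values are given side by side and not as separate support.

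Between untreated KO and WT islets the 3 members were Bcl2l1 at -0.22 ± 0.07 (edgeR adjusted p = 0.11), Mcl1 at -0.19 ± 0.08 (adjusted p = 0.222) and Bcl2l11 at -0.37 ± 0.12 (adjusted p = 0.101). For these 3 the KO libraries all lay below the WT libraries, as did 14.7% of all genes, and 25.7% of all genes did not overlap in either direction. Limma with sample quality weights called these 3 genes lower, at -0.23, -0.22 and -0.38 (adjusted p = 0.0129, 0.0278 and 0.0232), where it called 9.98% of all genes. So did edgeR without the pair of libraries of lowest weight, an alternative chosen after seeing the data, at -0.21, -0.25 and -0.44 (adjusted p = 0.0259, 0.0366 and 0.0252), with 7.34% of all genes called.

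**Figure D5:**
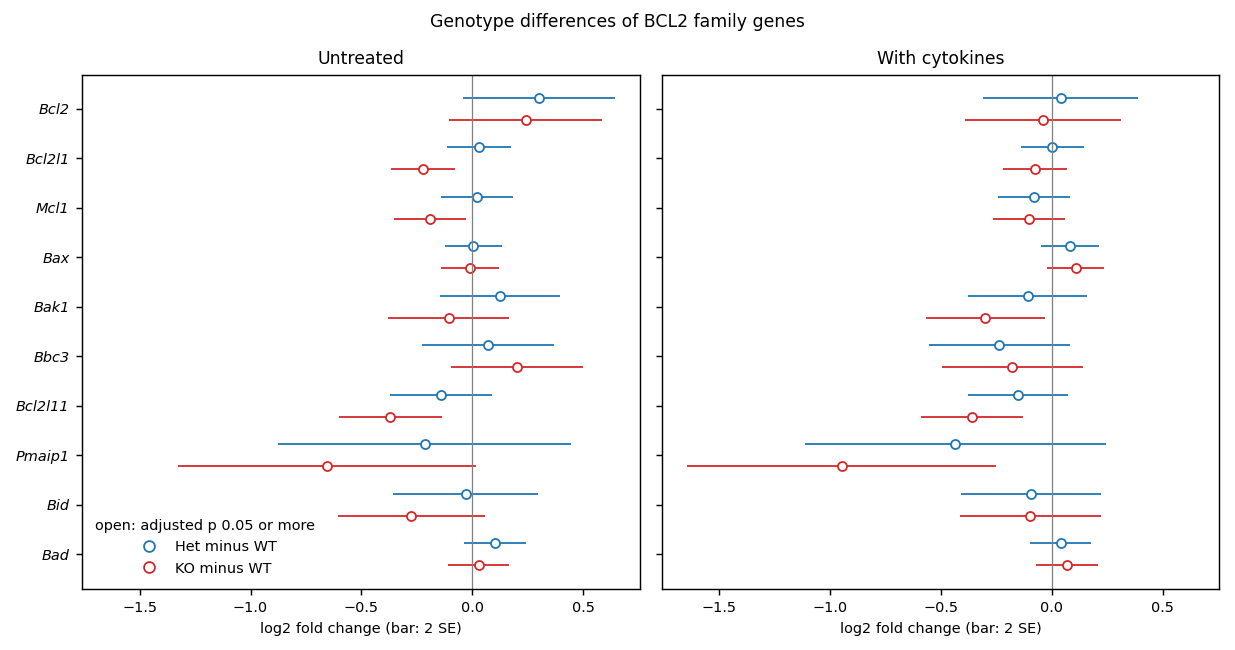
Log2 fold change of Het and KO against WT islets for the 10 genes, untreated and with cytokines, with bars of 2 SE. Open points did not pass the test at an adjusted p under 0.05, which holds for every point, and Bcl2l11 lies at -0.37 and -0.36 in KO.

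With cytokines KO islets held 26.6 ± 2.89 CPM of Bcl2l11 and WT islets 34.1 ± 2.32 CPM (SD, n = 3), a log2 difference of -0.36 ± 0.11 (edgeR adjusted p = 0.0747), close to the untreated value. Bak1 was at -0.30 ± 0.13 (adjusted p = 0.188), with 29.5, 27.4 and 34.5 CPM in KO below 40.4, 36.9 and 35.2 CPM in WT. Pmaip1 was at -0.95 ± 0.35 (adjusted p = 0.115), and its groups overlapped, with 2.26, 1.26 and 3.92 CPM in KO and 3.84, 6.13 and 4.47 CPM in WT. Without treated KO replicate 3, Bcl2l11 at -0.42 (adjusted p = 0.0494) and Pmaip1 at -1.40 (adjusted p = 0.0287) were called by edgeR, with 9.78% of all genes. DESeq2 gave Bcl2l11 at -0.34 (adjusted p = 0.0475), and limma called Bak1, Bcl2l11 and Pmaip1 lower, with 23.1% of all genes. Bcl2l11 did not overlap between KO and WT islets in either treatment, and with cytokines 30.5% of all genes did not overlap, 16% with KO lower.

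Between untreated KO and Het islets Bcl2l1 was at -0.25 ± 0.07 (edgeR adjusted p = 0.164) and Mcl1 at -0.21 ± 0.08 (adjusted p = 0.249). Without untreated Het replicate 1, edgeR called Bcl2l1 at -0.36 (adjusted p = 0.00159), Mcl1 at -0.30 (adjusted p = 0.0188) and Bak1 at -0.38 (adjusted p = 0.0492), with 11% of all genes called. Limma called these 3 and Bcl2l11, with 13% of all genes, and edgeR called the same 4 without the pair of libraries of lowest weight, with 18.1%. Het and WT islets gave log2 differences from -0.22 to 0.30 untreated and from -0.44 to 0.08 with cytokines, with smallest adjusted p of 0.761 and 0.758. The widest interval of 2 SE reached 0.66 and 0.68 to either side, that of Pmaip1.

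Markers of exocrine cells moved with the genotype. All 13 acinar markers were lower in KO than in WT islets in both treatments by edgeR, and none was called between Het and WT islets or by cytokines. Of 7 endothelial markers 2 were lower in untreated and 6 in treated KO islets. The part of both in the lower Bcl2l1, Mcl1, Bcl2l11 and Bak1 values of KO islets was not tested. The pathway's other genes that edgeR called between KO and WT islets were lower in KO. Of all genes, 3.04% were called untreated and 5.34% with cytokines, in either direction. The share of all genes called lower is not given here, so the direction is not read as a trait of the pathway. The regulators of transcription were lower for 4 of 23 untreated and 3 of 23 with cytokines, the mitochondrial steps for 1 and 2 of 17, the other BCL2 family genes for 0 and 2 of 13, and the turnover genes for 1 and 0 of 22. Those called in both treatments, named after their values were seen, were Rela, an NF-kB subunit (-0.38 and -0.41), the stress factor Atf3 (-0.63 and -0.55) and Vdac2, a membrane channel that binds BAK (-0.18 in each).

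Whether the response to cytokines differed between genotypes was tested by interactions. None of the 10 genes was called in any of the 3 interactions by edgeR, DESeq2 or limma, and none had an unadjusted p under 0.05 by edgeR, which called 0.0114% of all genes for KO and WT and 0% for the other pairs. The KO and WT responses differed by -0.38 to 0.18 on the log2 scale (smallest adjusted p = 0.823), the Het and WT responses by -0.31 to 0.08 (smallest adjusted p = 0.867) and the KO and Het responses by -0.07 to 0.24 (smallest adjusted p = 0.860). Bbc3 differed by -0.38 ± 0.22 between KO and WT, with an interval of 2 SE from -0.82 to 0.06. A stronger fall in KO was thus not detected, though the interval includes falls stronger by up to 0.82. The calls of Bcl2 in KO and of Bak1 in WT islets are thus not shown to differ from the other genotypes.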

How the data were processed

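Islet RNA of 6 groups with 3 libraries each was compared. The deposited table holds the authors' raw counts of reads, as whole numbers, for 55536 genes; FastQC 0.11.7, cutadapt 1.16, STAR 2.5.2a, featureCounts 1.6.2, DESeq2 1.30.0 and GRCm38 are named without roles, per the submitters' processing notes. A second deposited table holds equal counts for 25253 of these genes, with all 10 members. Here edgeR 4.0.16 in R 4.3.3 kept 17590 genes by filterByExpr (count minimum 10), scaled by TMM and fitted all 18 libraries by quasi-likelihood with a mean for each group (12 residual degrees of freedom, median biological coefficient of variation 0.103). The 12 comparisons used an adjusted p under 0.05. The script was tested on simulated counts. Alternatives were RLE size factors, no filter, the genes of the second table, only the groups compared, DESeq2 1.42.0, limma 3.58.1 with quality weights, a replicate block, and each library left out. Exon lengths came from GENCODE M21, promoters from RefSeq (GRCm38.p6), and figures from matplotlib 3.10.9 in Python 3.11.15. The members, lists and tests were chosen with earlier results of these data known. Named genes were the members, up to 4 genes of each list called in all 3 genotypes by smallest adjusted p (where fewer than 2 were, the 2 of smallest p), and 3 nearest profiles for 3 members; other genes were named as checks or after their values were seen. Some genes that this rule names are not reported here.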

Additional observations from a re-analysis of the deposited data

How the results depend on the processing

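Cytokine calls of Bcl2l1, Bbc3, Bcl2l11 and Bid held in all 3 genotypes under every alternative run, with Bbc3 at -1.16 to -0.999 (WT), -1.52 to -1.28 (Het) and -1.58 to -1.28 (KO). Members called between untreated KO and WT islets were 3 by limma and 3 without both libraries of lowest quality weight. They were 0 by edgeR on all libraries and 0 with any 1 library of these groups left out. Between untreated KO and Het islets they were 4 by limma, 4 without those libraries, and 0 to 3 with 1 library left out. Between KO and WT with cytokines they were 3 by limma, 1 by DESeq2 and 0 to 2 with 1 library left out. The sign turned for Bax in WT islets (0.016 by limma, -0.063 to 0.017 with 1 library left out) and for the KO to Het interaction of Bbc3 (-0.18 to 0.11 with 1 library left out). With the replicate number as a block, 6, 6 and 8 members were called by cytokines for WT, Het and KO, against 7, 4 and 7, where 26.2%, 24.9% and 31.6% of all genes were called: Bad was lost in WT (adjusted p = 0.0745), and Bcl2 (0.0435) and Bak1 (0.0367) were gained in Het and Bak1 (0.0210) in KO islets. Replicate numbers are those of the sample descriptions. The titles and the deposited sample table number libraries differently from the descriptions. For 1 Het pair the titles and that table also differ from each other, with the numbers 1 and 3. In the titles each treated library shares its number with its untreated partner. This leaves the treated and untreated partners within a genotype the same, but not the partners across genotypes, for which the other numbering was not run. The labels do not say that a number marks a pair: same-numbered treated and untreated libraries deviated with correlations of -0.22 to 0.39, 6 of 9 over 0.1, and 7 of 9 correlated best with their own number. No cause of these shifts was tested. Pmaip1 had the widest errors, an SE of 0.33 to 0.35 for cytokines, and as few as 28 reads in a library.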
